A study of Mus musculus with 20 samples.

Results

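The protocadherin genes of the mouse were followed through 5 states of differentiating ES cells with and without the de novo DNA methyltransferases. All genes measured whose single platform symbol begins with Pcdh were taken, each with the probe set of highest mean over the 20 arrays, which gave 35 of the 18194 genes tested. Of these, 23 were clustered genes (Pcdhb1 to Pcdhb22 and Pcdhgc4) and 12 were single genes that are not part of the cluster (Pcdh1, Pcdh7, Pcdh8, Pcdh9, Pcdh10, Pcdh11x, Pcdh12, Pcdh15, Pcdh17, Pcdh18, Pcdh19 and Pcdh20). Of the single genes, Pcdh1 and Pcdh12 are on chromosome 18, as the clustered genes are. The arrays (Affymetrix MOE430v2) held 10 groups of 2. Wild-type (WT) J1 ES lines of the 129sv/Jae strain and lines lacking both Dnmt3a and Dnmt3b (DKO) were each measured as ES cells, as primitive endoderm (PE) made from ES cells with 100 nM dexamethasone (Dex) over 4 days, as sorted Flk1(+) mesoderm positive for Flk1 and PDGFRα, and as that mesoderm grown for 4 further days without Dex (Dex-) or with 100 nM Dex (Dex+). Dex switches on Gata4GR, a fusion of Gata4 with the ligand-binding part of the glucocorticoid receptor, driven by the CAG promoter. This transgene was carried by every group, controls included, apart from replicate 1 of both Flk1(+) groups, which came from the parental lines. Each genotype was represented by a single transgenic clone, and the effects of the deletion and of the clone cannot be told apart. In bulk RNA, fewer cells of a type and less RNA per cell cannot be told apart either.

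Protocadherins are cell surface proteins of the cadherin superfamily that bind a like protein on the neighbouring cell. The clustered genes lie side by side in the alpha, beta and gamma clusters, and neurons choose among their alternative promoters, each with its own CpG methylation, with the help of CTCF and cohesin. The single genes of the delta group are known for roles in cell sorting and movement, in early mesoderm among other tissues.

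The deleted genes were checked first. In ES cells DKO minus WT was -3.12 ± 0.192 for Dnmt3a (limma difference of log2 values ± SE, adjusted p = 4.66e-07) and -3.92 ± 0.219 for Dnmt3b (limma, adjusted p = 2.3e-07). In Dex+ cells the differences were -0.80 ± 0.192 (limma, adjusted p = 0.00812) and -0.81 ± 0.219 (limma, adjusted p = 0.017), and in all 5 states both DKO arrays lay below both WT arrays for each gene. Which exons these probe sets read was not examined. Markers were high in the states they name. The mean log2 value of 5 ES cell genes was 12.35 in WT ES cells and that of 6 PE genes 13.10 in WT PE. That of 5 mesoderm genes was 12.69 in WT Flk1(+) cells and that of 4 mural cell genes 11.80 in WT Dex- cells. The 5 ES cell genes still had a mean of 9.17 in WT PE, against 6.47 in DKO PE. Of these, 4 were called lower in DKO than in WT PE (Pou5f1, Nanog, Sox2 and Fgf4). The part of this in the comparisons with PE was not tested. DKO Dex+ cells stood apart from WT Dex+ cells, with a PE mean of 13.09 against 10.53 and a mural mean of 10.15 against 12.30. Neural cells are the usual site of many protocadherins. Of 11 neural markers, 5 had group means that spanned less than 1 on the log2 scale (Sox1, Pax6, Dcx, Elavl4 and Snap25) and 6 spanned more. Stmn2 ran from 5.30 in DKO Dex+ to 10.76 in WT ES cells, Tubb3 from 4.99 to 8.84, Nes from 8.41 to 11.22, Neurod1 from 4.60 to 7.37, Map2 from 4.03 to 6.75 and Elavl3 from 5.32 to 6.90. Stmn2 and Nes were called lower in DKO than in WT Dex+ cells, and the part of neural markers in the results was not tested. The arrays were scanned on 4 days, with all ES arrays alone on a day, so state and scan day cannot be told apart in any step from ES cells.

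Most protocadherin genes varied little over the 10 groups, and 4 single genes varied a great deal. The range of a gene is taken here as its highest minus its lowest group mean on the log2 scale. For the 23 clustered genes the median range was 0.430 (0.133 to 2.48) and for the 12 single genes 0.844 (0.276 to 6.15). The median was 0.937 over all genes and 0.441 over the 40% of genes with the lowest means. All 23 clustered and 8 of the single genes belonged to those 40%, so their ranges are to be read beside 0.441. Pcdh8 (6.16), Pcdh7 (5.93), Pcdh18 (5.84) and Pcdh19 (3.64) were the remaining 4, and the clustered genes of widest range were Pcdhb22 (2.48) and Pcdhgc4 (1.20).

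**Figure D1:**
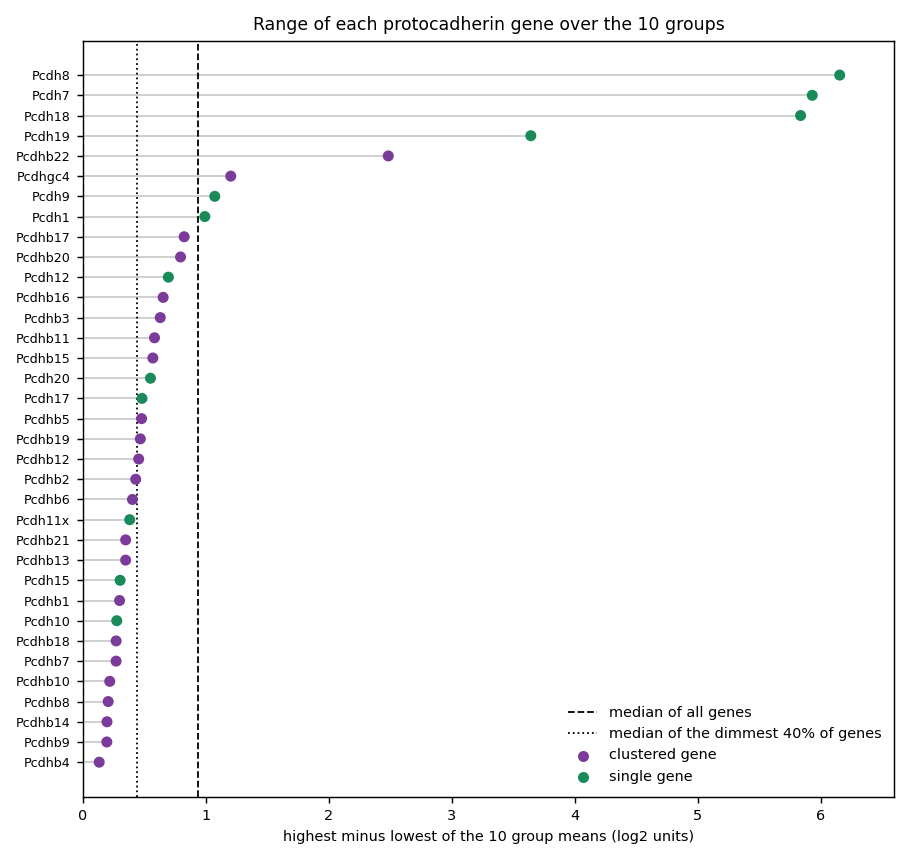
Each point is a protocadherin gene, placed by the difference between its highest and lowest group mean over 10 groups (log2 units). Purple points are clustered genes and green points single genes, the dashed line is the median of all genes (0.937) and the dotted line that of the 40% of genes with the lowest means (0.441). Only Pcdh8, Pcdh7, Pcdh18, Pcdh19 and Pcdhb22 pass 2 units.

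A gene was called in a comparison where limma's adjusted p over all genes was under 0.05 and the difference at least 1 on the log2 scale (2-fold). Over 13 comparisons of groups, 6 members were called at least once (Pcdh7, Pcdh8, Pcdh18, Pcdh19, Pcdhb22 and Pcdhgc4) and 29 never. The clustered genes gave 4 calls in 299 values (1.34%) and the single genes 26 in 156 (16.7%), beside 8.91% of the values of all genes and 3.46% of those of the 40% of genes with the lowest means. All 26 calls of single genes came from the 4 outside those 40%. Between genotypes, the members called numbered 1 in ES cells, 0 in PE, 0 in Flk1(+) cells, 3 in Dex- cells and 4 in Dex+ cells. Over all genes 1.39%, 1.96%, 0.698%, 5.84% and 9.65% were called in the same 5 comparisons. The 3 of 35 in Dex- cells (8.57%) and the 4 of 35 in Dex+ cells (11.4%) thus lie near the share of all genes. They lie above the 2.98% and 3.52% called among the 40% of genes with the lowest means, where 31 of the members lie. All of these calls but that of Pcdhb22 came from the 4 single genes outside those 40%. For PE the count at an unadjusted p under 0.05 was 1 and for Flk1(+) cells 5.

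In the steps of differentiation the number of members called ran from 0 to 6. PE against ES cells gave 2 called members in WT and 2 in DKO cells (5.71% in both), beside 14.2% and 16.3% of all genes and 5.14% and 6.28% of the 40% of genes with the lowest means, where 31 of the 35 members lie. Flk1(+) against ES cells gave 6 in WT and 4 in DKO cells, 17.1% and 11.4% of the members beside 12.5% and 10.2% of all genes. Among those 40% of genes the shares were 5.18% and 5.48%. Dex- cells against Flk1(+) cells gave 3 in WT and 2 in DKO cells (8.57% and 5.71%). The shares were 15.3% and 16.6% of all genes and 3.64% and 4.84% of those 40%. The response to Dex gave 0 in WT cells (limma, 5 members at an unadjusted p under 0.05) and 3 in DKO cells (8.57%). The shares were 1.6% and 9.63% of all genes and 0.962% and 3.56% of those 40%. All steps from ES cells share their ES arrays, and both steps into and out of Flk1(+) cells share the Flk1(+) arrays.

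**Figure D2:**
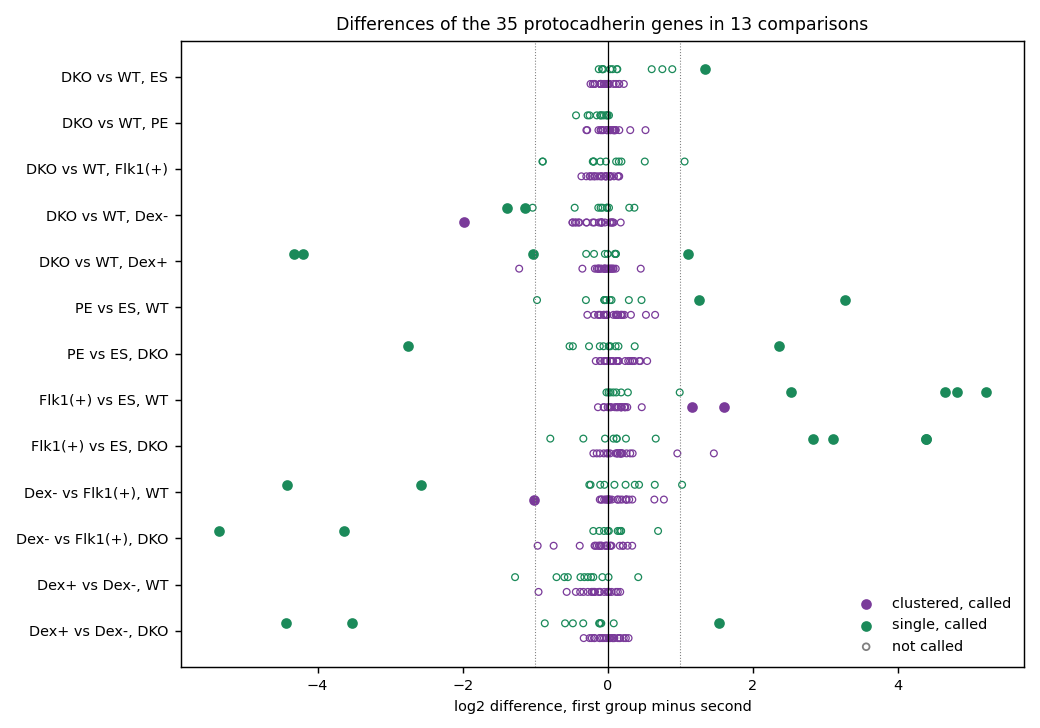
Each row is a comparison and each point a protocadherin gene, placed by its log2 difference (first group minus second), with clustered genes in purple and single genes in green. Filled points were called and open points were not, the dotted lines mark a 2-fold difference, and in DKO against WT Dex+ cells the leftmost points are Pcdh7 (-4.32) and Pcdh18 (-4.20).

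Pcdh7, a delta protocadherin of the cell surface, was low in ES cells and PE and high in mesoderm and its progeny, save in DKO cells given Dex. Its log2 values in WT cells were 3.76 and 3.78 in ES cells, 3.92 and 4.20 in PE, 8.42 and 9.55 in Flk1(+) cells, 9.26 and 10.01 in Dex- cells and 8.88 and 9.19 in Dex+ cells. In DKO cells they were 3.63 and 3.77 in ES cells, 3.97 and 3.65 in PE, 8.16 and 8.01 in Flk1(+) cells, 8.52 and 7.97 in Dex- cells and 5.00 and 4.42 in Dex+ cells. Both DKO Dex+ arrays were thus below every mesoderm-derived array of either genotype and above every ES and PE array. From ES to Flk1(+) cells Pcdh7 rose by 5.22 ± 0.325 in WT (limma, adjusted p = 2.46e-08) and by 4.38 ± 0.325 in DKO cells (limma, adjusted p = 1.82e-07). With Dex it fell by 3.53 ± 0.325 in DKO cells (limma, adjusted p = 2.02e-06), and the difference in WT cells was -0.60 ± 0.325 (limma, adjusted p = 0.531). DKO cells were lower than WT by 4.32 ± 0.325 with Dex (20-fold, limma, adjusted p = 3.28e-07) and by 1.39 ± 0.325 without it (limma, adjusted p = 0.0105).

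The smaller difference in Dex- cells was -0.74 between the arrays scanned on day 3 and -2.04 between those of day 2, and its call was lost without replicate 2 of either genotype (-1.77 to -1.01) and with the mean over the gene's probe sets. In Flk1(+) cells the genotypes differed by -0.90 ± 0.325 (limma, adjusted p = 0.227). Without the parental-line arrays, which leaves 1 array per group, the difference was -1.54. A second probe set read 7.77 and 8.47 in WT Dex+ cells and 5.03 and 4.91 in DKO Dex+ cells. It gave the same direction with Dex, at -3.16 ± 0.320 between genotypes (limma, adjusted p = 1.37e-05). In Dex- cells its difference was -0.18 ± 0.320 (limma, adjusted p = 0.871), so the lower value of DKO Dex- cells rests on the brighter probe set. The third differed by -0.61 ± 0.191 in Dex+ cells (limma, adjusted p = 0.0543).

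Pcdh18, another delta protocadherin, followed a like course. In WT cells its log2 values were 4.97 and 4.78 in ES cells, 6.25 and 6.01 in PE, 10.47 and 8.90 in Flk1(+) cells, 10.63 and 10.79 in Dex- cells and 9.35 and 9.52 in Dex+ cells. In DKO cells they were 5.43 and 5.53 in ES cells, 6.29 and 5.41 in PE, 10.44 and 9.30 in Flk1(+) cells, 9.97 and 9.38 in Dex- cells and 5.23 on both Dex+ arrays. With Dex, the DKO arrays lay below those of DKO PE, while the WT arrays stayed within the range of Flk1(+) cells. Pcdh18 rose from ES to Flk1(+) cells by 4.81 ± 0.427 in WT (limma, adjusted p = 8.99e-07) and 4.39 ± 0.427 in DKO cells (limma, adjusted p = 3.01e-06), and from ES cells to PE in WT by 1.26 ± 0.427 (limma, adjusted p = 0.0376). The last of these calls was lost on leaving out any of its 4 arrays (1.13 to 1.38) and with the mean over the gene's probe sets. With Dex it fell by 4.44 ± 0.427 in DKO cells (limma, adjusted p = 3.19e-06) and gave -1.28 ± 0.427 in WT cells (limma, adjusted p = 0.172). DKO cells were lower than WT by 4.20 ± 0.427 (18.4-fold, limma, adjusted p = 5.69e-06) with Dex.

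Without Dex the genotypes differed in Pcdh18 by -1.04 ± 0.427 (limma, adjusted p = 0.144), and with the replicate number as a block by -1.04 ± 0.207, which passed (limma, adjusted p = 0.00664). The other probe sets gave -0.17 ± 0.433 (limma, adjusted p = 0.919) and 0.10 ± 0.437 (limma, adjusted p = 0.957) there, so this difference too was seen with 1 probe set. The step from WT Flk1(+) to Dex- cells was 1.02 ± 0.427 (limma, adjusted p = 0.0905). Without the parental-line arrays, which leaves 1 WT Flk1(+) array, it was 1.81. The second probe set of Pcdh18 read 6.45 and 6.64 in WT and 3.56 and 4.04 in DKO Dex+ cells. It differed by -2.74 ± 0.433 between genotypes there (limma, adjusted p = 0.000656), the same direction as the first. The third gave -0.98 ± 0.437 (limma, adjusted p = 0.204).

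The response of these genes to Dex differed between the genotypes by a test of the difference itself. The DKO response minus the WT response was -2.93 ± 0.460 for Pcdh7 (limma, adjusted p = 0.00102) and -3.16 ± 0.604 for Pcdh18 (limma, adjusted p = 0.00447), and these were the 2 members called, 5.71% of 35 beside 5.86% of all genes. Among the arrays scanned on day 2 alone, the DKO response was -3.26 for Pcdh7 and -4.15 for Pcdh18, and with scan day as a block -3.65 and -4.05. In the same comparison of DKO with WT Dex+ cells, 4 of 6 PE markers were called higher (Sox17, Gata6, Lama1 and Pdgfra; list means per array 13.02 to 13.16 in DKO and 10.43 to 10.63 in WT cells) and 4 of 4 mural markers lower (9.79 to 10.50 in DKO and 12.29 to 12.31 in WT cells). Of 4 endothelial markers 2 were higher (Cdh5 and Tek). Tek was also called higher in PE than in ES cells, with group means of 7.78 in ES cells and 9.75 in PE for WT and 8.25 and 9.64 for DKO. In that step Pecam1 was called lower in both genotypes. Gata4 read 7.60 and 7.70 in WT and 10.18 and 10.13 in DKO Dex+ cells. Its own and transgene RNA were not separated. On the ES arrays, which carry the transgene, it read 5.21 and 5.49 in WT and 5.37 and 4.81 in DKO cells. The Flk1(+) arrays without the transgene read 7.99 in WT and 8.73 in DKO cells, and those with it 8.12 and 8.39. How much of the signal comes from the transgene was not tested. The part of the marker and Gata4 differences in the fall of Pcdh7 and Pcdh18 was not tested either. Both genes read low in PE, where WT arrays were 3.92 and 4.20 for Pcdh7.

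**Figure D3:**
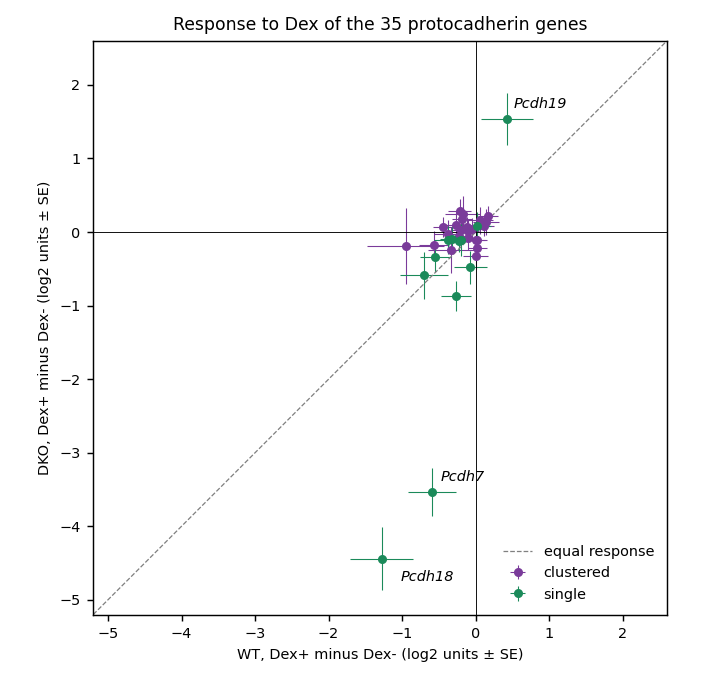
The response to Dex (Dex+ minus Dex-, log2 units) of each of 35 protocadherin genes in WT cells (horizontal axis) and DKO cells (vertical axis), with bars of 1 SE from limma on both axes. Clustered genes (purple) and most single genes (green) gather near 0, while Pcdh7 (-0.60 in WT, -3.53 in DKO) and Pcdh18 (-1.28 and -4.44) lie far under the dashed line of equal response.

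The promoter windows of Pcdh7 and Pcdh18 are shown because both genes fell with Dex in the cells that lack the DNA methyltransferases and because the letters bear on where methylation could lie. Each window holds 250 bases before and 50 after the RefSeq start (build GRCm38.p6), written 5′ to 3′ along the gene, with every CpG in capitals. That of Pcdh7 is at chr5:57717831-57718130 on the plus strand and that of Pcdh18 at chr3:49757267-49757566 on the minus strand. Methylation was not measured on these arrays.
Pcdh7: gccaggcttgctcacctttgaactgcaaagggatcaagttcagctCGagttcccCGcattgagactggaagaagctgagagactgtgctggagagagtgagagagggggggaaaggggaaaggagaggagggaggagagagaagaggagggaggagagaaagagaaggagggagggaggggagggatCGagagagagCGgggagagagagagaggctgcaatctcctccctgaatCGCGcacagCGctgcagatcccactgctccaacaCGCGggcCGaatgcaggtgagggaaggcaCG
Pcdh18: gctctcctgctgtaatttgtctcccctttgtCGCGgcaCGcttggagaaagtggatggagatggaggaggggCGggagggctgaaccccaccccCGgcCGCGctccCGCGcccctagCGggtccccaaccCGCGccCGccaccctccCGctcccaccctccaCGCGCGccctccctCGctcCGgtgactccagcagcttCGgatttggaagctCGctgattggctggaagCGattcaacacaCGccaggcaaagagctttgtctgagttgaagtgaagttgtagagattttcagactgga

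The window of Pcdh18 held 23 CpGs, a number reached by 21.5% of the 32851 promoters of the RefSeq table, with an observed over expected CpG of 0.778. That of Pcdh7 held 11, reached by 41.4%, at 0.493, beside a median of 7 CpGs and 0.384 over all promoters. Windows were given for 9 members, all single genes, of which Pcdh9 had 2. GATA motifs were searched on both strands as AGATAA (in 11.2% of all promoters), AGATAG (8.95%), TGATAA (9.05%) and TGATAG (7.29%). None of these was in either printed window and 2 of the 10 held one (Pcdh15 and Pcdh20), beside 29.8% of all promoters. The letters CGCT, which overlap a CpG by construction, were in all 10 windows, beside 61.8% of all promoters. The windows of Pcdh8 and Pcdh19 held 14 and 18 CpGs.

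Pcdh8, known as paraxial protocadherin and active in early mesoderm, was high in Flk1(+) cells and fell again in culture. In WT cells its log2 values were 6.0 and 5.30 in ES cells, 4.69 and 4.67 in PE, 9.85 and 10.77 in Flk1(+) cells, 5.52 and 6.25 in Dex- cells and 5.13 and 5.23 in Dex+ cells. In DKO cells they were 7.24 and 6.76 in ES cells, 4.23 and 4.25 in PE, 9.79 and 10.41 in Flk1(+) cells, 4.66 and 4.82 in Dex- cells and 3.92 and 4.39 in Dex+ cells. DKO arrays were above all WT arrays in ES cells and below them in PE, Dex- and Dex+ cells, and the genotypes overlapped in Flk1(+) cells. From ES to Flk1(+) cells Pcdh8 rose by 4.65 ± 0.323 in WT (limma, adjusted p = 6.69e-08) and 3.10 ± 0.323 in DKO cells (limma, adjusted p = 6.16e-06). From there to Dex- cells it fell by 4.42 ± 0.323 in WT (limma, adjusted p = 1.39e-07) and 5.36 ± 0.323 in DKO cells (limma, adjusted p = 2.81e-08). Between ES cells and PE it fell by 2.76 ± 0.323 in DKO cells (limma, adjusted p = 9.26e-06) and gave -0.98 ± 0.323 in WT cells (limma, adjusted p = 0.0328), just short of the 2-fold needed.

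Between genotypes Pcdh8 was higher in DKO ES cells by 1.35 ± 0.323 (limma, adjusted p = 0.0422) and lower in DKO Dex- cells by 1.14 ± 0.323 (limma, adjusted p = 0.0299) and DKO Dex+ cells by 1.03 ± 0.323 (limma, adjusted p = 0.0374). These calls were near the threshold. The first was lost without replicate 2 of WT or either DKO array (1.00 to 1.69), with quantile normalization and with each array centred on its median, the second without replicate 2 of WT or either DKO array (-1.51 to -0.77) and the third on leaving out any of the 4 arrays (-1.26 to -0.79). In Dex- cells the within-day values were -0.85 and -1.43. The probe set used has the suffix _x_at, a kind that may read other transcripts as well. The other probe set read 5.40 and 4.66 in WT ES cells and 7.31 and 6.87 in DKO ES cells, a difference of 2.06 ± 0.283 (limma, adjusted p = 0.00173). In Dex- and Dex+ cells it gave -0.75 ± 0.283 (limma, adjusted p = 0.147) and -0.84 ± 0.283 (limma, adjusted p = 0.0728), and neither passed.

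Pcdh19, a delta protocadherin encoded on chromosome X, was high in both PE and Flk1(+) cells. Its log2 values in WT cells were 5.13 and 4.91 in ES cells, 8.14 and 8.42 in PE, 8.03 and 7.05 in Flk1(+) cells, 5.03 and 4.90 in Dex- cells and 4.79 and 5.99 in Dex+ cells. In DKO cells they were 5.92 and 5.61 in ES cells, 8.05 and 8.21 in PE, 8.89 and 8.31 in Flk1(+) cells, 4.96 on both Dex- arrays and 6.21 and 6.77 in Dex+ cells. Both DKO Dex+ arrays lay above the WT ones, though a WT array at 5.99 came close, and all 4 Dex+ arrays lay below the PE arrays. Pcdh19 rose from ES cells to PE by 3.27 ± 0.353 in WT (limma, adjusted p = 5.54e-06) and 2.36 ± 0.353 in DKO cells (limma, adjusted p = 9.41e-05). It rose from ES to Flk1(+) cells by 2.52 ± 0.353 in WT (limma, adjusted p = 7.85e-05) and 2.83 ± 0.353 in DKO cells (limma, adjusted p = 3.59e-05). From Flk1(+) to Dex- cells it fell by 2.57 ± 0.353 in WT (limma, adjusted p = 5.29e-05) and 3.64 ± 0.353 in DKO cells (limma, adjusted p = 2.24e-06).

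With Dex, Pcdh19 went against Pcdh7 and Pcdh18 in DKO cells, rising by 1.53 ± 0.353 (limma, adjusted p = 0.00592), a call lost without replicate 2 of DKO Dex+ cells (1.25 to 1.81 over the arrays left out). With the mean over the gene's probe sets the difference was 0.72, under 2-fold, and the other probe sets gave 0.14 ± 0.181 (limma, adjusted p = 0.794) and 0.48 ± 0.234 (limma, adjusted p = 0.255), so the rise rests on 1 probe set. It was 0.42 ± 0.353 in WT cells (limma, adjusted p = 0.773), and the difference of the responses did not pass (1.11 ± 0.499, limma, adjusted p = 0.241). DKO Dex+ cells were higher than WT by 1.10 ± 0.353 (limma, adjusted p = 0.0408), which was lost without replicate 1 of WT or replicate 2 of DKO cells (0.50 to 1.70), with each array centred on its median and with the mean over the gene's probe sets. In Flk1(+) cells the genotypes differed by 1.06 ± 0.353 (limma, adjusted p = 0.187). With the replicate number as a block that difference had an SE of 0.165 and passed (limma, adjusted p = 0.0102), which made the count in Flk1(+) cells 1 in place of 0. A second probe set read 7.09 and 6.89 in WT and 8.21 and 8.59 in DKO Flk1(+) cells and was called there at 1.41 ± 0.234 (limma, adjusted p = 0.0153). In Dex+ cells it read 5.51 and 6.19 in WT and 6.27 and 6.25 in DKO cells.

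**Figure D4:**
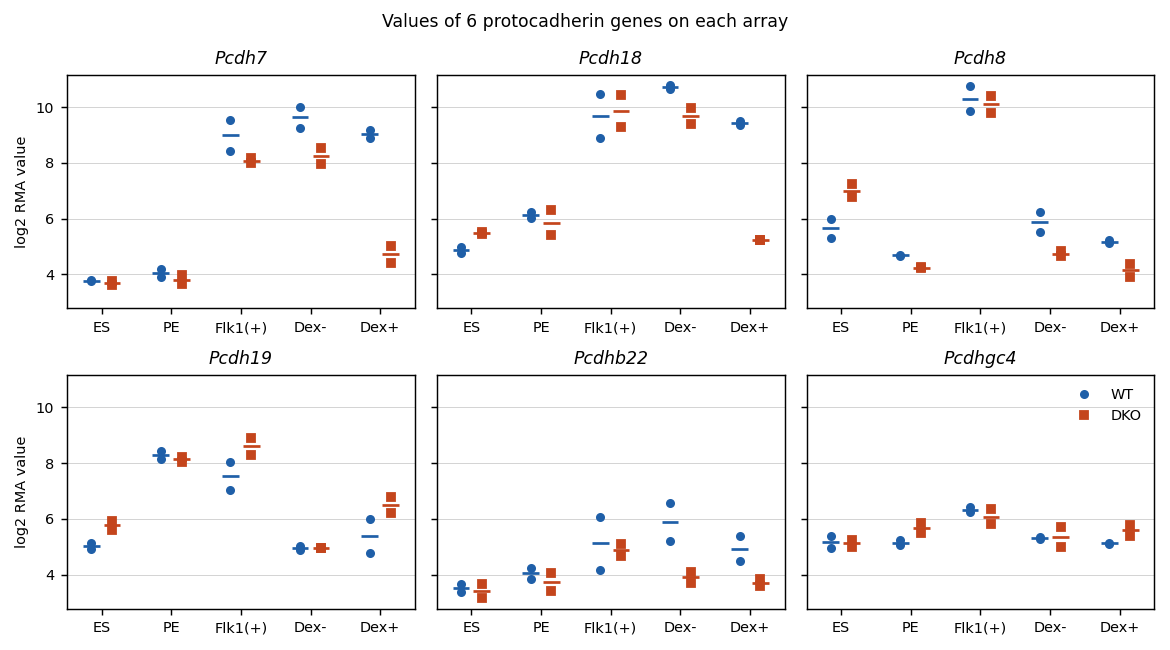
Log2 RMA values on each array for the 6 genes called in at least 1 comparison, by state, with WT as blue circles, DKO as red squares and a bar at the mean of 2 arrays. Pcdh7 and Pcdh18 stay high in WT Dex+ cells and are low in DKO Dex+ cells, Pcdh8 peaks in Flk1(+) cells, Pcdh19 is high in PE and Flk1(+) cells, and the clustered genes Pcdhb22 and Pcdhgc4 move over a narrower range.

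**Figure D5:**
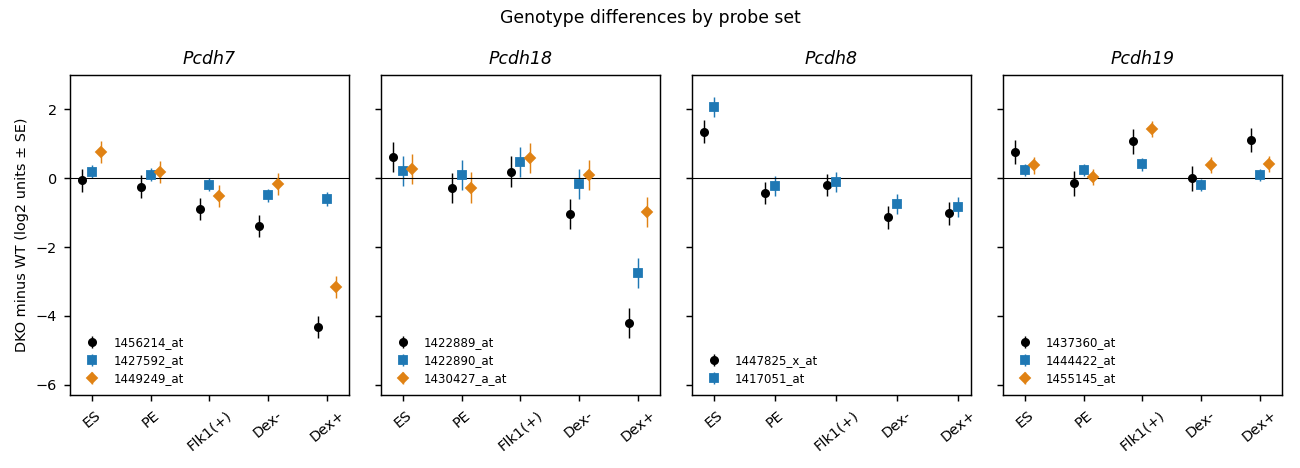
Genotype difference (DKO minus WT, log2 units, bars of 1 SE from limma) of every probe set of Pcdh7, Pcdh18, Pcdh8 and Pcdh19 in the 5 states, the probe set used in black. In Dex+ cells all probe sets of Pcdh7 and Pcdh18 lie below 0, from -0.61 to -4.32 for Pcdh7, and in ES cells both probe sets of Pcdh8 lie above it (1.35 and 2.06).

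Of the clustered genes, Pcdhb22 and Pcdhgc4 were the 2 ever called. Pcdhb22, the highest-numbered gene of the beta cluster, read 3.38 and 3.65 in WT ES cells, 6.08 and 4.16 in WT Flk1(+) cells, 5.21 and 6.57 in WT Dex- cells and 4.50 and 5.38 in WT Dex+ cells. In DKO cells it read 3.66 and 3.16 in ES cells, 5.09 and 4.65 in Flk1(+) cells, 3.70 and 4.11 in Dex- cells and 3.85 and 3.59 in Dex+ cells. The WT arrays of each mesoderm-derived state were far apart, and in Dex- and Dex+ cells both were above the DKO arrays. DKO Dex- cells were lower by 1.99 ± 0.521 (limma, adjusted p = 0.0199), the single genotype call among 115 values of clustered genes. In Dex- cells it made 4.35% of the 23, beside 5.84% of all genes and 2.98% of the 40% of genes with the lowest means. The difference was -1.51 on scan day 3 and -2.46 on day 2, and the call was lost without replicate 2 of WT or either DKO array (-2.67 to -1.31). In Dex+ cells the difference was -1.22 ± 0.521 (limma, adjusted p = 0.133) and passed with the replicate block (SE 0.370, limma, adjusted p = 0.0369).

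From ES to Flk1(+) cells Pcdhb22 rose in WT by 1.60 ± 0.521 (limma, adjusted p = 0.0335). Without the parental-line arrays the difference was 0.65, under 2-fold, so the call rests on the array that read 6.08. It was also lost without either WT ES array (0.65 to 2.56 over the arrays left out). The same step in DKO cells gave 1.46 ± 0.521 (limma, adjusted p = 0.0606). From WT Flk1(+) to Dex- cells it was 0.77 ± 0.521 (limma, adjusted p = 0.320), and 1.73 without the parental-line arrays, which leaves 1 WT Flk1(+) array.

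Pcdhgc4, a C-type gene of the gamma cluster, read 4.97 and 5.37 in WT ES cells, 6.23 and 6.42 in WT Flk1(+) cells and 5.34 and 5.28 in WT Dex- cells. The Flk1(+) arrays were above all the others of WT. It rose into Flk1(+) cells by 1.16 ± 0.238 (limma, adjusted p = 0.00204) and fell out of it by 1.02 ± 0.238 (limma, adjusted p = 0.00409), the first lost without replicate 1 of ES cells (0.96 to 1.36 over the arrays left out) and the second without replicate 2 of either state (-1.11 to -0.92). In DKO cells, which read 5.00 and 5.25 in ES, 6.36 and 5.81 in Flk1(+) and 4.99 and 5.69 in Dex- cells, the same steps were 0.96 ± 0.238 (limma, adjusted p = 0.00884) and -0.75 ± 0.238 (limma, adjusted p = 0.0253), both under 2-fold.

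The other 21 clustered genes were called in none of the 13 comparisons. Their values lay between 3.148 and 5.477 on all arrays, and the widest range of group means among them was 0.824 (Pcdhb17). Across the 5 genotype comparisons, 112 of 115 values of clustered genes were within 0.5 of 0, and the median difference was -0.0465 in ES cells, 0.0373 in PE, -0.0387 in Flk1(+) cells, -0.122 in Dex- cells and -0.0372 in Dex+ cells, beside -0.00472, -0.0095, -0.0261, -0.0258 and -0.00485 over all genes. No share of all genes within 0.5 of 0 is given here, so the count of 112 does not set the clustered genes apart. The differences with an adjusted p under 0.05 that were under 2-fold were those of Pcdhb3 between genotypes in Dex- cells (-0.45 ± 0.140, limma, adjusted p = 0.0469), of Pcdhb16 from ES cells to PE in WT (0.65 ± 0.155, limma, adjusted p = 0.00458) and DKO cells (0.45 ± 0.155, limma, adjusted p = 0.0360) and of Pcdhb17 from WT Flk1(+) to Dex- cells (0.64 ± 0.202, limma, adjusted p = 0.0253). With values this low a change from a silent state can be understated, and close paralogs of the beta cluster may share signal. The alpha genes were not measured singly. Their 6 probe sets, each assigned to 9 or 14 alpha genes, gave 0 calls in 78 values and group means that spanned 0.21 to 0.80.

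Among the 8 single genes never called between 2 groups, Pcdh1 alone differed between the genotypes in a step. It read 4.43 and 4.10 in WT ES cells and 5.36 and 5.15 in WT Flk1(+) cells, but 5.33 and 4.97 in DKO ES cells and 4.61 and 4.11 in DKO Flk1(+) cells. The order of the genotypes was thus opposite in the 2 states, with no overlap in either. The step was 0.99 ± 0.190 in WT (limma, adjusted p = 0.00117) and -0.79 ± 0.190 in DKO cells (limma, adjusted p = 0.00720), each under 2-fold, and the DKO step minus the WT step was -1.78 ± 0.269 (limma, adjusted p = 0.00466). It was the 1 member called in that test, 2.86% of 35 beside 0.791% of all genes. Fitted on the 4 groups concerned alone, the difference did not pass (limma, adjusted p = 0.229). With the probe sets used, no member was called in the difference of the PE step (1.36% of all genes, 2 members at an unadjusted p under 0.05). The same held for the step to Dex- cells (2.91%, 2 members). In a fit over all probe sets, the other probe set of Pcdh8 was called in the difference of the PE step (-2.294 ± 0.4, limma, adjusted p = 0.0147). It was also called in that of the Flk1(+) step (-2.175 ± 0.4, limma, adjusted p = 0.0375). There the _x_at probe set used for Pcdh8 gave -1.783 ± 0.464 (limma, adjusted p = 0.149) and -1.552 ± 0.464 (limma, adjusted p = 0.27). Without the parental-line arrays, which leaves 1 array per group, Pcdh1 differed by -1.04 between DKO and WT Flk1(+) cells.

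Pcdh9, a delta gene, was -0.87 ± 0.205 with Dex in DKO cells (6.33 and 5.99 without Dex, 5.39 and 5.18 with it, limma, adjusted p = 0.00700), under 2-fold. Pcdh12, which endothelial cells express, read 5.44 and 6.40 in DKO Flk1(+) cells and between 5.10 and 5.99 elsewhere. Its step from DKO ES cells passed without the parental-line arrays (1.14 ± 0.183, limma, adjusted p = 0.000440) and gave 0.66 ± 0.228 with them (limma, adjusted p = 0.0527). Endothelial markers in the DKO Flk1(+) arrays had a mean of 4.88 and 4.89. Pcdh10, Pcdh11x, Pcdh15, Pcdh17 and Pcdh20 had ranges of group means between 0.276 and 0.550.

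Lists of genes that act with protocadherins are given beside the shares of all genes. Of 18 measured regulators of clustered promoters, 0 were called between genotypes in ES cells, PE, Flk1(+) and Dex- cells and 1 in Dex+ cells (Uhrf1, which guides maintenance methylation, 1.07 ± 0.231, limma, adjusted p = 0.00383), 5.56% beside 9.65% of all genes. The response to Dex gave 0 called in WT cells and 2 in DKO cells, both higher. These were Uhrf1 (1.496 ± 0.231, limma, adjusted p = 0.000277) and Dnmt1 (1.178 ± 0.292, limma, adjusted p = 0.00961). For Uhrf1 the DKO response minus the WT response was 1.664 ± 0.326 (limma, adjusted p = 0.00542). From Flk1(+) to Dex- cells 5 fell in each genotype, 27.8% beside 15.3% of all genes called in WT and 16.6% in DKO cells. Ctcf, which loops promoters to enhancers, fell by 1.62 ± 0.296 in WT (limma, adjusted p = 0.000636) and 1.33 ± 0.296 in DKO cells (limma, adjusted p = 0.00270), and the cohesin subunit gene Smc1a by 1.19 ± 0.130 (limma, adjusted p = 6.42e-06) and 1.59 ± 0.130 (limma, adjusted p = 4.54e-07). In the same step Uhrf1 gave -1.59 ± 0.231 in WT cells (limma, adjusted p = 8.81e-05). In DKO cells Uhrf1 gave -2.975 ± 0.231 (limma, adjusted p = 2.97e-07). The DKO step of Uhrf1 minus the WT step was -1.384 ± 0.326 (limma, adjusted p = 0.0301). Rest, a repressor of neuronal genes, differed from ES cells to PE by -2.11 ± 0.314 in WT cells (limma, adjusted p = 0.000114) and -2.34 ± 0.314 in DKO cells (limma, adjusted p = 3.55e-05). From ES to Flk1(+) cells Rest gave -2.415 ± 0.314 in WT cells (limma, adjusted p = 3.91e-05). In DKO cells that step gave -1.609 ± 0.314 (limma, adjusted p = 0.00163). The list's median was -0.60 in WT and -0.86 in DKO cells for the step to Dex- cells, beside 0.0117 and 0.0285 over all genes.

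Of 16 measured intracellular partners, 2 were lower in DKO than in WT Dex+ cells and 0 higher (12.5%, near the 9.65% of all genes). Marcks, a protein kinase C substrate of the cell cortex, was lower by 3.80 ± 0.258 (limma, adjusted p = 1.25e-07) and Cyfip2, of the WAVE complex, by 1.05 ± 0.280 (limma, adjusted p = 0.0147). Marcks fell with Dex in DKO cells by 4.10 ± 0.258 (limma, adjusted p = 4.71e-08), and its responses differed between genotypes by -3.57 ± 0.365 (limma, adjusted p = 2.86e-05). Wasf1, also of the WAVE complex, differed from ES cells to PE by -2.40 ± 0.187 in WT (limma, adjusted p = 2.27e-07) and -2.74 ± 0.187 in DKO cells (limma, adjusted p = 3.97e-08).

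The other cadherins also held members with large changes. Of 20 measured classical cadherins, 3 were lower and 2 higher in DKO than in WT Dex+ cells (25% beside 9.65% of all genes), with Cdh11, of mesenchymal cells, lower by 4.32 (limma, adjusted p = 1.95e-08) and Cdh5, of endothelial cells, higher by 1.41 (limma, adjusted p = 9.08e-06). Cdh11 rose from ES to Flk1(+) cells by 7.45 in WT (limma, adjusted p = 1.33e-10) and 6.64 in DKO cells (limma, adjusted p = 3.56e-10). Its genotype difference was already -2.883 ± 0.245 in Dex- cells (limma, adjusted p = 2.18e-06). The response of Cdh11 to Dex was -1.294 ± 0.245 in WT cells (limma, adjusted p = 0.00937). In DKO cells it was -2.735 ± 0.245 (limma, adjusted p = 1.56e-06). The DKO response minus the WT response was -1.441 ± 0.347 (limma, adjusted p = 0.0194). Of 17 other large cadherins, 1 was called in DKO against WT Dex+ cells, 5.88% beside 9.65% of all genes (Clstn1, a calsyntenin, 1.36 ± 0.195, limma, adjusted p = 0.000151). In ES cells 1 was called, 5.88% beside 1.39% of all genes (Cdhr1, of photoreceptors, 1.77 ± 0.161, limma, adjusted p = 1.46e-05). In Flk1(+) cells 1 was called, 5.88% beside 0.698% of all genes (Celsr1, -1.187 ± 0.246, limma, adjusted p = 0.0288). In PE and Dex- cells no gene of this list was called between genotypes.

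Around the protocadherin cluster on chromosome 18, 37 genes of the reference gene table were measured within it or up to 1 Mb from it, with all Pcdh genes left out. Between genotypes 1 was called in ES cells, 0 in PE, 0 in Flk1(+) cells, 1 in Dex- cells and 2 in Dex+ cells, or 2.70%, 0%, 0%, 2.70% and 5.41%, beside 1.39%, 1.96%, 0.698%, 5.84% and 9.65% of all genes. Those of Dex+ cells were Dnd1, a germ cell RNA-binding protein (1.61, limma, adjusted p = 3.38e-06), and Cystm1, a small membrane protein (1.24, limma, adjusted p = 0.00589), both higher in DKO cells. Dnd1 was also the gene called in Dex- cells, again higher in DKO cells (1.045 ± 0.156, limma, adjusted p = 4e-04). Taf7, a subunit of the general transcription factor TFIID whose gene lies within the cluster, rose with Dex in DKO cells by 2.05 (limma, adjusted p = 0.000919). Hbegf, a growth factor, rose from ES cells to PE by 2.51 in WT (limma, adjusted p = 4.63e-05) and 2.36 in DKO cells (limma, adjusted p = 6.46e-05).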

How the data were processed

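RNA of 20 samples, each of 50 ng and labelled in 2 cycles, was hybridised to Affymetrix MOE430v2 arrays. The deposited values are log2 intensities that the authors made from the scanner files with RMA (background correction, quantile normalization and median polish); the version of RMA is not given in the sources used here. Scanner experiment files gave scan day and chip lot only. Of 45101 probe sets, 34958 had 1 symbol, 932 had several and 9211 had none here, and 64 were control probe sets. Symbols were updated through the RefSeq gene table (GRCm38.p6), and the probe set of highest mean stood for each of 18194 genes. The methods name SAM for the choice of genes. Here limma 3.58.1 in R 4.3.3 fitted 10 group means to all 20 arrays, with Benjamini-Hochberg adjustment over all genes in each of 17 comparisons (13 of groups and 4 of differences between genotypes). The scripts were tested on simulated data. The number of arrays, 2 per group, limits the precision, and an exact permutation test of 2 against 2 could not go below 0.333.

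Members are all genes whose single symbol starts with Pcdh. Each member called in at least 1 of the 13 comparisons was given with its arrays and other probe sets, the other members by counts and ranges, and Dnmt3a, Dnmt3b and Gata4 as checks. From each gene list up to 6 genes with the largest change were open to naming. Members named for a value under 2-fold or under an alternative, and list genes named because few were called, were chosen after their values were seen. The members and gene lists were chosen with earlier results of these data known. Samples were grouped by their labels, which call them biological replicates. The p-values measure the spread between these samples, pooled for each gene over all groups. Same-numbered WT and DKO arrays of a state deviated together (r = 0.19, 0.36, 0.311, 0.175 and 0.282 in ES, PE, Flk1(+), Dex- and Dex+ cells), so the replicate number was taken to pair the genotypes in an alternative fit. The main fit had no block. In PE, Flk1(+) and Dex- cells a shared number is also a shared scan day. Alternatives were another probe set rule, filters, scalings, thresholds, blocks and the leaving out of arrays. A lone array left in a group was assumed to vary like the other groups. For Flk1(+) cells that assumption is not borne out. Between replicates, 880 genes in WT and 698 in DKO Flk1(+) cells were at least 2-fold apart, against 20 to 256 in other groups. The main fit gives a gene the same spread in every group, so its p-values for comparisons with Flk1(+) cells may understate the spread of those cells. A fit without an Flk1(+) array leaves that group's spread out, and its calls may understate it further. The parental-line arrays were scanned on day 3 and the other Flk1(+) arrays on day 1. Line and scan day thus cannot be told apart.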

Additional observations from a re-analysis of the deposited data

Results flagged for a closer look

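With the probe set used for each protocadherin gene, 3 values differed between the genotypes by a test of the difference itself. The DKO response to Dex minus the WT response was -2.93 for Pcdh7 (limma, adjusted p = 0.00102) and -3.16 for Pcdh18 (limma, adjusted p = 0.00447). The step from ES to Flk1(+) cells in DKO minus that in WT was -1.78 for Pcdh1 (limma, adjusted p = 0.00466). The probe set of Pcdh8 that was not used also differed, in the steps from ES cells to PE and to Flk1(+) cells. Groups of 2 arrays are too small to single out an array that stands apart.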

How the results depend on the processing

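The 33 pairs of a member and a comparison in which it was called gave 438 values under the alternatives, of which 394 passed, 44 kept their direction but did not pass and 0 reversed. There were 21 pairs that passed throughout, among them Pcdh7 and Pcdh18 in DKO against WT Dex+ cells. Counts of members called moved as follows. In DKO against WT ES cells (1), leaving out the lowest 40% of genes, quantile normalization or centring on the median gave 0, and no minimum change gave 2. In Flk1(+) cells (0), the replicate block gave 1, no minimum change 1, an unadjusted p under 0.01 gave 1 and leaving out the parental-line arrays 2. With the mean over all probe sets, Dex- cells gave 1 in place of 3, Dex+ cells 2 in place of 4, and WT PE against ES cells 1 in place of 2. That step gave 4 with no minimum change, in WT and in DKO cells, and 1 in WT at an unadjusted p under 0.01. Dex- against Flk1(+) cells gave 5 in WT without the parental-line arrays and 4 in DKO with no minimum change. The Dex response of WT cells gave 1 in place of 0 when only its groups were fitted or at an unadjusted p under 0.01. The genotype difference of the PE step gave 1 in place of 0 with the mean over probe sets, without _x_at and _s_at probe sets, with only its groups, with scan day as a block or at an unadjusted p under 0.01. That of the Flk1(+) step (1) gave 2 without _x_at and _s_at probe sets or at an unadjusted p under 0.01, and 0 without the lowest 40% of genes, which took Pcdh1 out, or with only its groups. Leaving out each array in turn gave 0 to 2 in ES cells, 0 to 2 in Flk1(+) cells, 0 to 3 in Dex- cells and 2 to 3 in Dex+ cells between genotypes. It gave 1 to 2 for WT PE against ES cells, 2 to 5 for WT Dex- against Flk1(+) cells, 1 to 2 for the genotype difference of the Flk1(+) step and 0 to 2 for that of the Dex- step. The replicate block made 3 calls (Pcdh19 in Flk1(+), Pcdh18 in Dex- and Pcdhb22 in Dex+ cells) and changed no other call between genotypes. The labels do not say whether same-numbered arrays of different states of a genotype share a preparation (r from -0.167 to 0.361, highest for WT Dex+ with Dex- cells). The causes of these moves were not tested, apart from the filter that took Pcdh1 out. Low signal limits the clustered genes, all of them among the lowest 40%.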
